A study of Ovis aries with 12 samples.

Results

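The genes described here are 10 enzymes of fatty acid and glycerolipid synthesis in sheep muscle, of 21257 genes in the expression table. They were chosen by symbol: the 3 lipins LPIN1, LPIN2 and LPIN3, the acyltransferases GPAM, DGAT1 and DGAT2, and the fatty acid synthesis enzymes ACACA, FASN, ELOVL6 and SCD. All 10 were listed in the table, and all 10 passed the filter on low counts that left 13319 genes for testing. RNA came from the longissimus dorsi, a back muscle sold as loin, of Tan sheep (Ovis aries) aged 5 months at selection. The sheep ate a basal diet with no additive (control) or the same diet with 0.5% (SUC1), 1% (SUC2) or 2% (SUC3) succinate, a dicarboxylic acid of the TCA cycle, in a trial of 60 days after 10 days of adaptation. There were 3 libraries per diet, 12 in all, from a trial with 9 sheep per diet. No source used here says if each library came from 1 animal or from pooled RNA, and the p-values therefore measure only the spread between libraries, part of which may be technical.

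Fatty acids are built from acetyl-CoA in the cytosol: acetyl-CoA carboxylase makes malonyl-CoA, fatty acid synthase makes palmitate, and elongation and desaturation turn palmitate into oleate. Triglycerides are then assembled on glycerol 3-phosphate by a glycerol-3-phosphate acyltransferase, an acylglycerol-phosphate acyltransferase, a phosphatidate phosphatase (the lipins) and a diacylglycerol acyltransferase. In ruminants adipose tissue is the main site of fatty acid synthesis, and in muscle the fat stored between fibres is known as marbling. Lipin 1 is the main lipin of skeletal muscle in mouse and human, and besides its enzymatic step it acts in the nucleus as a coactivator with PPARGC1A.

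Library totals were 15742428 to 18564057 counts. Of the 16 skeletal muscle marker genes listed, 15 were in the table, none of them at 0 in all libraries, and their summed level was 180485 to 283562 CPM (each count relative to its library's scaled total), as the tissue label says. All values in CPM below are scaled by TMM, a correction for library composition. These are bulk samples, so fewer cells of a type and less RNA per cell cannot be told apart.

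By edgeR, LPIN1 was the only one of the 10 genes that passed a test of diet. It rose 4.39-fold in the 1% succinate diet, a call that was lost in 6 of 19 alternative fits, each without 1 library. The level of LPIN1 was higher in each of the 9 succinate libraries than in any control library, as for 1.69% of genes tested. The other 9 genes passed in no comparison of diets by that test. LPIN2 had higher values than control at both higher doses, while LPIN3, GPAM and DGAT1 had log2 fold changes between -0.30 and 0.12 in all 3 diets. ACACA and DGAT2 (above) and ELOVL6 (below) separated from control at 1% succinate without passing. At that dose 11.5% of all genes tested lay above control without overlap and 10.6% below, and at 2% succinate 9.15% lay above. SCD in SUC2 and SUC3 changed sign without 1 control library.

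The 10 genes differed widely in level. Compared per length, in the deposited FPKM (counts divided by gene length and by library total), LPIN1 had a median over the 12 libraries of 61.3 FPKM, above 96.7% of the genes in the table. DGAT1 followed at 8.55 FPKM, SCD at 5.31, FASN at 1.84 and GPAM at 1.59. The other 5 had median FPKM values of 0.989 for ACACA, 0.888 for LPIN3, 0.533 for DGAT2, 0.399 for ELOVL6 and 0.229 for LPIN2. The lowest LPIN1 library, at 21.1 FPKM, lay above the highest value of any of the others, 20.1 FPKM for SCD in control replicate 3. Every other pair of neighbours in this order overlapped in range over the libraries, from DGAT1 (6.43 to 12.3 FPKM) and SCD (2.72 to 20.1 FPKM) down to ELOVL6 (0.286 to 0.748 FPKM) and LPIN2 (0.121 to 0.318 FPKM). The table gave LPIN2 a length of 27698 bases, longer than that of 99.8% of genes and set against 5767 bases for LPIN1 and 4477 for LPIN3. Its place at the end of the order rests on that length: in CPM, which does not divide by length, LPIN2 was 7th of the 10.

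**Figure D1:**
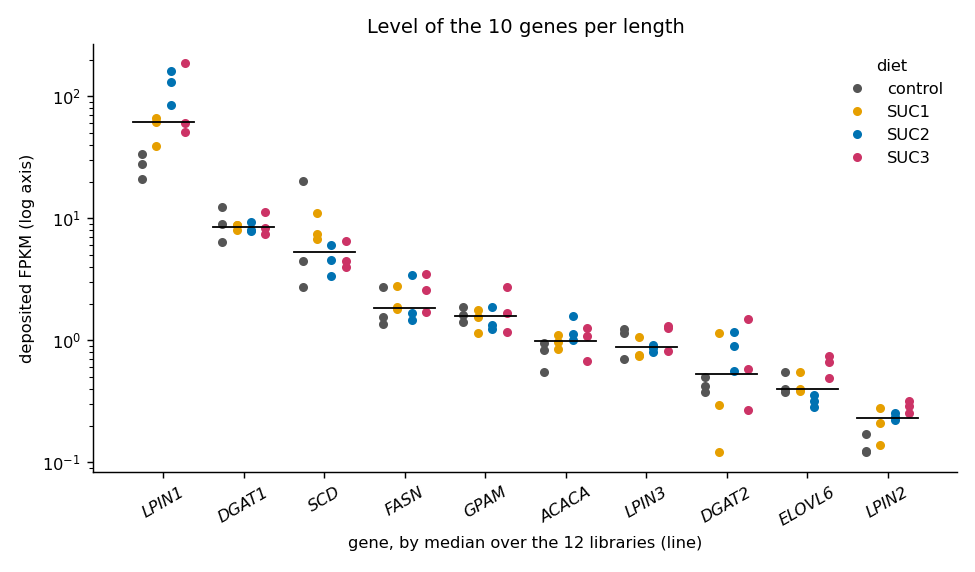
Deposited FPKM (log axis) of each of the 10 genes in each library, by diet, with the median over the 12 libraries as a line. LPIN1 lies apart with a median of 61.3 FPKM, and each of the other genes overlaps with its neighbours.

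The first committed step of fatty acid synthesis is made by ACACA, the cytosolic acetyl-CoA carboxylase (chromosome 11, 13136279 to 13424653, minus strand). Its level was 11.1, 9.52 and 16.03 CPM in SUC2, against 6.48, 7.73 and 9.46 CPM in control. The lowest SUC2 library lay just above the highest control library, so the diets did not overlap. The log2 fold change was 0.63 ± 0.26 (SE; adjusted p = 0.228), which did not pass. In SUC1 the values were 11.7, 8.79 and 10.7 CPM and in SUC3 they were 10.2, 12.3 and 7.004 CPM, both overlapping with control. The log2 fold changes were 0.40 ± 0.26 in SUC1 (adjusted p = 0.816) and 0.32 ± 0.26 in SUC3 (adjusted p = 0.653). The estimates for ACACA were positive in all 3 diets, and none passed. Inside its span the table places 2 genes on the opposite strand with at most 7 counts per library, so reads that could belong to them were few.

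FASN, the multi-domain synthase that makes palmitate (chromosome 11, 50277417 to 50296144, plus strand), had 13.4, 11.3 and 28.2 CPM in SUC2, against 13.1, 11.7 and 22.1 CPM in control. In both diets 1 library stood above the others, replicate 3 in each, and the diets overlapped throughout. SUC1 had 23.7, 15.7 and 15.97 CPM and SUC3 had 27.0, 20.7 and 14.4 CPM. On average FASN stood at 15.6 ± 5.64 CPM under control, 18.5 ± 4.52 under SUC1, 17.6 ± 9.24 under SUC2 and 20.7 ± 6.30 under SUC3 (SD, n = 3 each). The log2 fold changes against control ranged from 0.17 in SUC2 to 0.41 in SUC3, each with an SE of 0.36 and with adjusted p of 0.676 to 0.952. Without SUC2 replicate 3 the SUC2 value was -0.34.

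ELOVL6, which elongates palmitate to stearate (chromosome 6, 15561913 to 15701183, plus strand), was measured with only 24 to 69 counts per library. It had 1.83, 1.42 and 1.66 CPM in SUC2, against 2.34, 1.91 and 2.87 CPM in control. All 3 SUC2 libraries lay below the control libraries and also below the 3.004, 2.15 and 2.20 CPM of SUC1. In SUC3 the values were 3.69, 2.52 and 3.59 CPM, above every SUC2 library but overlapping with control. The log2 fold change was -0.53 ± 0.31 in SUC2 against control (adjusted p = 0.404), 0.46 ± 0.30 in SUC3 against control (adjusted p = 0.558) and 0.05 ± 0.30 in SUC1 against control (adjusted p = 0.991). SUC3 against SUC2 gave 0.99 ± 0.31 (adjusted p = 0.246), the smallest adjusted p of any of the 10 genes between succinate diets. None of these passed.

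SCD, the desaturase that turns stearate into oleate (chromosome 22, 21026048 to 21041247, plus strand), was the most variable of the 10 genes within control. Control replicate 3 had 104.5 CPM, from 1823 counts, while control replicates 1 and 2 had 16.7 and 21.3 CPM, from 242 and 392 counts. SUC1 had 60.3, 39.6 and 38.8 CPM, SUC2 had 23.1, 30.1 and 17.6 CPM, and SUC3 had 19.6, 33.2 and 24.1 CPM. Every SUC1 library lay above every SUC2 and SUC3 library, and control reached both below and above all of them. Against control the log2 fold change was -1.01 ± 0.54 for SUC2 (adjusted p = 0.357) and -0.89 ± 0.54 for SUC3 (adjusted p = 0.522). Without control replicate 3 these became 0.31 and 0.44, and the value for SUC1 became 1.29, against -0.04 ± 0.53 with it. The SUC1 value, near 0, also turned positive without SUC1 replicate 2 (0.06) or SUC1 replicate 3 (0.072). Between succinate diets, SCD gave -0.97 ± 0.54 in SUC2 against SUC1 (adjusted p = 0.665) and -0.85 ± 0.54 in SUC3 against SUC1 (adjusted p = 0.780). These differences are between succinate libraries only. Their SE and adjusted p rest on a spread estimated over all 12 libraries, control replicate 3 included.

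**Figure D2:**
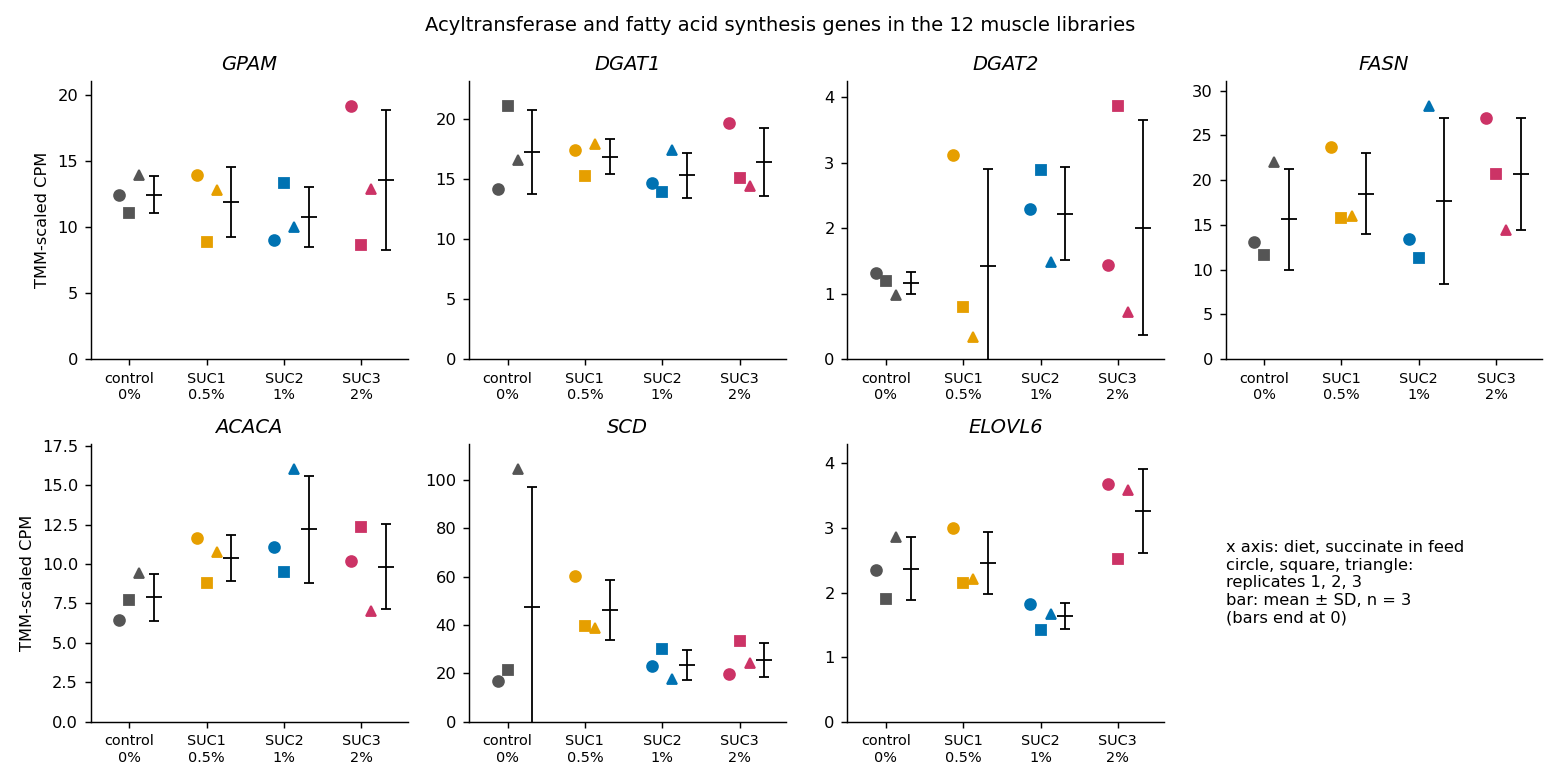
TMM-scaled CPM of GPAM, DGAT1, DGAT2, FASN, ACACA, SCD and ELOVL6 in each library by diet, with the mean ± SD of 3 libraries beside the points (bars that would run below 0 end there). SCD in control is spread by 1 library at 104.5 CPM, and the ELOVL6 libraries of SUC2, at 1.42 to 1.83 CPM, lie below those of the other diets.

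Glycerolipid assembly starts with GPAM, the mitochondrial glycerol-3-phosphate acyltransferase (chromosome 22, 32219904 to 32288784, minus strand). It had 9.05, 13.4 and 9.99 CPM in SUC2, against 12.4, 11.1 and 13.9 CPM in control. The values were 14.0, 8.91 and 12.8 CPM in SUC1 and 19.2, 8.63 and 12.9 CPM in SUC3, the widest spread of any diet. Each diet overlapped with control, and the log2 fold change was -0.07 ± 0.28 for SUC1, -0.21 ± 0.28 for SUC2 and 0.12 ± 0.28 for SUC3 (adjusted p of 0.752 to 0.987). Without SUC3 replicate 1 the SUC3 value was -0.22.

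LPIN1, the phosphatidate phosphatase that makes diacylglycerol (chromosome 3, 20594488 to 20722089, plus strand), was measured with 2057 to 18606 counts per library. It had 729, 459 and 925 CPM in SUC2, against 142, 147 and 193 CPM in control. Even the lowest SUC2 library lay far above the highest control library, so the diets did not overlap. The log2 fold change was 2.13 ± 0.44 (adjusted p = 0.0382), in means 704 ± 234 CPM in SUC2 and 160 ± 28.1 CPM in control (SD, n = 3 each). In that comparison 191 of 13319 genes passed, which is 1.43%, and LPIN1 was the only one of the 10, 112th of all genes by p. Of all genes, 0.773% passed as higher and 0.661% as lower, that is 103 higher among 191 calls, and 149 higher among 203 when counts were scaled by library totals alone. Leaving out single libraries moved the number of calls between 0 and 332. It was 0 without control replicate 2, without control replicate 3 or without SUC2 replicate 3, and 332 without SUC3 replicate 2. The call was near the threshold: leaving out any 1 of the 3 control libraries gave an adjusted p of 0.083 to 0.148, leaving out SUC2 replicate 1 or 3 gave 0.0701 or 0.140, and leaving out SUC1 replicate 2 gave 0.0534, while the log2 fold change stayed between 1.89 and 2.37.

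At the lowest dose LPIN1 had 235, 364 and 417 CPM in SUC1, again with every library above control. The log2 fold change was 1.08 ± 0.43 (adjusted p = 0.567), in a comparison in which 0 of 13319 genes passed (0%; 1014 genes at an unadjusted p under 0.05, and 70 by DESeq2). At the highest dose it had 326, 1042 and 299 CPM in SUC3, and SUC3 replicate 2 alone reached the level of SUC2. The mean was 556 ± 421 CPM (SD, n = 3) and the log2 fold change against control 1.79 ± 0.44 (adjusted p = 0.165), where 0.00751% of genes passed. Without SUC3 replicate 2 the log2 fold change was 0.96. Against SUC1, LPIN1 was at 1.06 ± 0.43 in SUC2 with no overlap (adjusted p = 0.531) and at 0.72 ± 0.43 in SUC3 (adjusted p = 0.761), while SUC3 against SUC2 gave -0.34 ± 0.42 (adjusted p = 0.806). Without SUC3 replicate 2, SUC3 was at -0.12 against SUC1 (adjusted p = 0.947) and at -1.17 against SUC2 (adjusted p = 0.121). By edgeR no gene passed in SUC2 against SUC1 or in SUC3 against SUC1 (0% each; 1142 and 974 genes at an unadjusted p under 0.05, and 42 and 65 by DESeq2), and 0.015% passed in SUC3 against SUC2. A slope over the percent of succinate gave a log2 change of 0.87 ± 0.31 per percent (adjusted p = 0.319), and the joint test of the 4 diets gave an adjusted p of 0.118. Both missed the threshold, which 0.00751% of genes passed for the slope and 0.0225% for the joint test.

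LPIN2, another lipin with the same enzymatic activity (chromosome 23, 37628972 to 37725135, minus strand), had 56 to 154 counts per library. It had 8.23, 7.79 and 7.24 CPM in SUC3 and 6.01, 6.09 and 7.03 CPM in SUC2, against 4.00, 3.05 and 4.64 CPM in control. Both diets lay above control without overlap, SUC3 lay above SUC2, and SUC1, at 6.07, 3.93 and 8.40 CPM, overlapped with all of them. By diet, the log2 fold change of LPIN2 was 0.65 ± 0.27 with 0.5% (adjusted p = 0.588), 0.71 ± 0.27 with 1% (adjusted p = 0.189) and 0.99 ± 0.27 with 2% succinate (adjusted p = 0.187). The slope was 0.43 ± 0.14 per percent of succinate (adjusted p = 0.279). None passed by edgeR, whereas DESeq2 called LPIN2 in SUC3 (adjusted p = 0.0449). LPIN1 passed in SUC3 by DESeq2 as well (adjusted p = 0.00511), a test that called 241 genes there against 1 by edgeR.

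LPIN3, the remaining lipin (chromosome 13, 69954725 to 69973231, plus strand), had 53 to 103 counts per library and did not follow the others. It had 3.50, 3.84 and 3.82 CPM in SUC2, against 3.65, 5.01 and 5.10 CPM in control. SUC1 had 4.99, 3.38 and 3.65 CPM, and SUC3 had 5.50, 3.58 and 5.75 CPM, and all diets overlapped. The estimates of log2 fold change were -0.20 ± 0.27 for SUC1, -0.30 ± 0.26 for SUC2 and 0.10 ± 0.26 for SUC3 (adjusted p of 0.601 to 0.943). On the opposite strand EMILIN3, which had 4 to 107 counts per library, overlaps the end of LPIN3, from 69972634 to 69973231. Reads in that stretch cannot be told apart unless strand was used in counting, which is not stated.

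**Figure D3:**
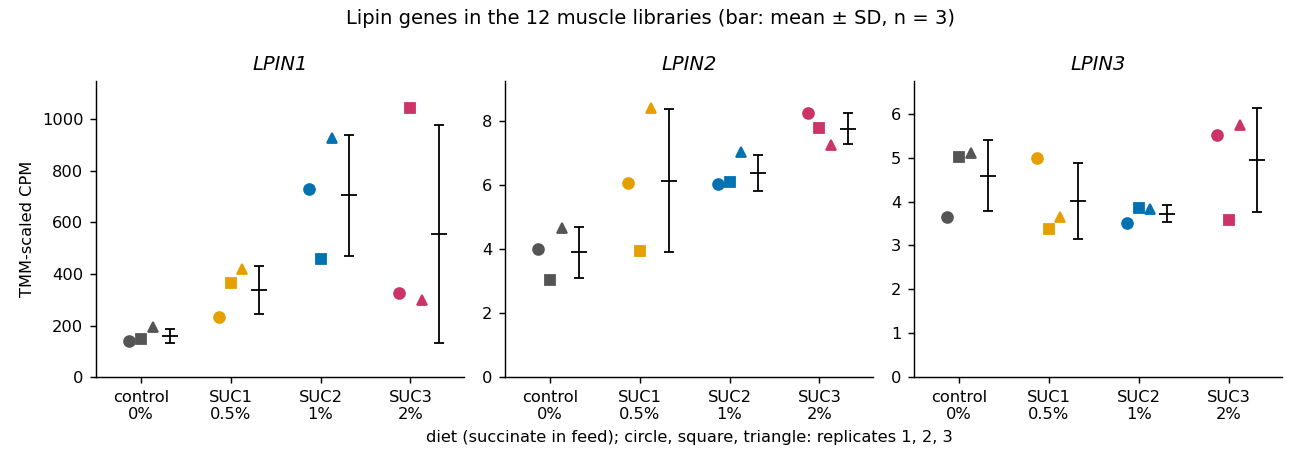
TMM-scaled CPM of the 3 lipin genes in each library by diet, with the mean ± SD of 3 libraries beside the points. LPIN1 is above all control libraries (142 to 193 CPM) in each succinate library, LPIN2 lies between 3.05 and 8.40 CPM, and LPIN3 overlaps between all diets.

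The share of LPIN1 among the lipins was high throughout. LPIN1 made up 95.5% to 98.0% of lipin counts under SUC1, 97.9% to 98.8% under SUC2 and 95.8% to 98.9% under SUC3, against 94.8% to 95.2% under control. Every succinate library lay above every control library in this share. On the log2 scale the ratio of LPIN1 to LPIN3 was 6.83 ± 0.97 in the 9 succinate libraries and 5.13 ± 0.22 in the 3 control libraries, a difference of 1.70 (exact two-sided permutation p = 0.00909, the smallest that 9 against 3 libraries can give; 0.0364 adjusted over 4 ratio tests). In SUC2 alone the difference from control was 2.38, with an exact p of 0.1, the smallest that 3 against 3 libraries can give. The ratio of LPIN1 to LPIN2 was 6.15 ± 0.77 in the succinate libraries and 5.37 ± 0.22 in control, a difference of 0.78 that overlapped (exact p = 0.145). These 4 tests were added after the levels had been seen. LPIN1 was then already known to lie above control in all 9 succinate libraries. The adjustment over 4 tests does not cover that choice, so these p-values are no separate evidence of a diet difference. The joint test and the slope of LPIN1 itself did not pass.

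The last step of triglyceride synthesis is shared by DGAT1 and DGAT2, enzymes unrelated in sequence. DGAT1 (chromosome 9, 13560420 to 13569123, plus strand) varied least of the 10 genes over the 12 libraries, by 1.52-fold from the lowest to the highest, with 14.6, 13.9 and 17.4 CPM in SUC2, against 14.1, 21.1 and 16.6 CPM in control. SUC1 and SUC3 lay between 14.4 and 19.7 CPM, and all diets overlapped. Its log2 fold change was -0.04 ± 0.20 for SUC1, -0.18 ± 0.20 for SUC2 and -0.08 ± 0.20 for SUC3 (adjusted p of 0.695 to 0.991).

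DGAT2 (chromosome 15, 53943498 to 53976554, plus strand) was the least abundant of the 10 in CPM, with 5 to 69 counts per library. It had 2.30, 2.90 and 1.48 CPM in SUC2, against 1.31, 1.20 and 0.975 CPM in control, with no overlap. SUC1 ran from 0.344 to 3.12 CPM and SUC3 from 0.718 to 3.86 CPM, each with 1 library well above the other two. Log2 fold changes of 0.31 ± 0.72 for SUC1, 0.94 ± 0.70 for SUC2 and 0.79 ± 0.71 for SUC3 did not pass (adjusted p of 0.534 to 0.976). The libraries of a diet differed widely, with 52, 13 and 5 counts in SUC1 and 27, 69 and 12 in SUC3. Without SUC1 replicate 1 the SUC1 value was -0.997, and without SUC3 replicate 2 the SUC3 value was -0.10.

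Set side by side, the 10 genes did not move as a block. In SUC1, 6 of the 10 had a positive log2 fold change (48.3% of all genes did) and the median was 0.15. In SUC2 it was 5 of 10 (49.8% of all genes) with a median of -0.0010, and in SUC3 8 of 10 (49% of all genes) with a median of 0.36. The medians over all genes tested were -0.01, -0.0027 and -0.01 in these comparisons, which share the control libraries. LPIN1 was the only one of the 10 without overlap in SUC1 against control, in a direction in which 7.4% of all genes did not overlap, and none lay below (6.81%). In SUC2, 4 of the 10 lay above control without overlap (11.5% of all genes) and 1 below (10.6%). In SUC3, 2 of the 10 did, LPIN1 and LPIN2, both above (9.15%), and none lay below (8.88%). Between succinate diets, LPIN1 lay above in SUC2 against SUC1 (7.23% of all genes), SCD and ELOVL6 lay below (6.43%), SCD lay below in SUC3 against SUC1 (6.06%), and LPIN2 and ELOVL6 lay above in SUC3 against SUC2 (7%). LPIN1 was 1 of 225 genes, 1.69% of those tested, for which all 9 succinate libraries exceeded all 3 control libraries.

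**Figure D4:**
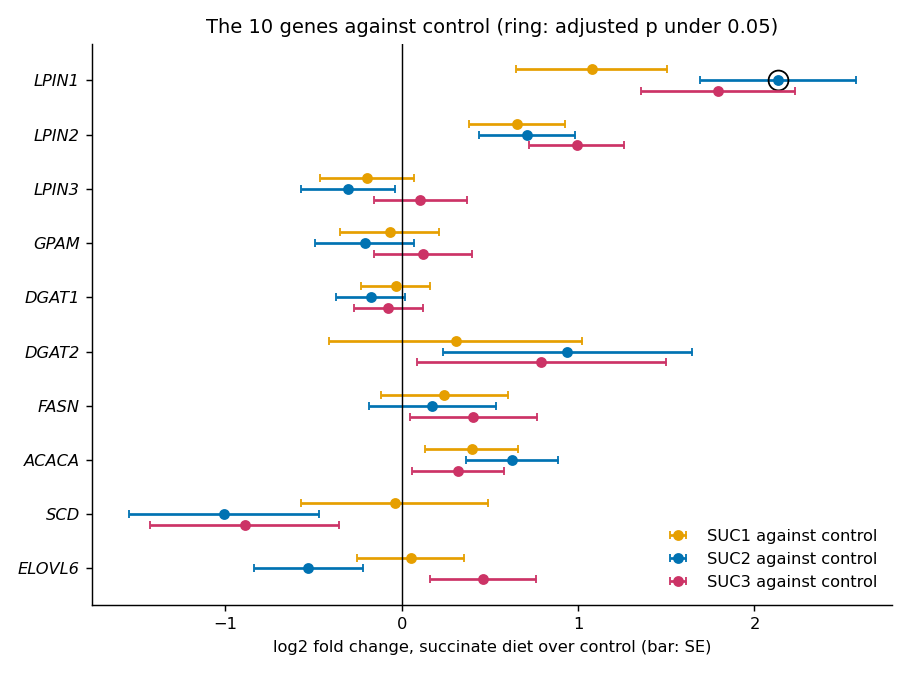
Log2 fold change of each of the 10 genes in SUC1, SUC2 and SUC3 over control, with SE bars; a ring marks an adjusted p under 0.05. Only LPIN1 in SUC2 (2.13 ± 0.44) carries a ring, and the point of SCD in SUC2 (-1.01 ± 0.54) rests on 1 control library.

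Across the 12 libraries the genes whose log2 CPM most resembled that of LPIN1 were CIPC, a negative regulator of the circadian clock, PRICKLE3, a planar cell polarity gene, REV1, a translesion DNA polymerase, FOXO1, a transcription factor that insulin signalling keeps out of the nucleus, and HNRNPF, an RNA-binding protein. Pearson's r was 0.98 for CIPC, 0.96 for PRICKLE3, 0.94 for REV1, 0.94 for FOXO1 and 0.92 for HNRNPF, among 11268 genes ranked. These points share libraries and the diet difference. After each diet's mean was subtracted, r was 0.94 for CIPC, 0.88 for PRICKLE3, 0.84 for REV1, 0.86 for FOXO1 and 0.79 for HNRNPF. These deviations are pooled over the 4 diets, and the 5 genes were ranked on the same libraries, so this is a description of them. Single diets could differ: HNRNPF had 193, 213 and 199.5 CPM in SUC2, its highest value in the SUC2 library with the least LPIN1. FOXO1 had 400.5, 184 and 503 CPM in SUC2, against 66.3, 78.5 and 82.6 CPM in control, and it rose with a log2 fold change of 2.26 ± 0.49 (adjusted p = 0.0423). PRICKLE3 rose in SUC2 with 1.19 ± 0.25 (adjusted p = 0.0422), while CIPC, at 153, 150 and 223 CPM in SUC2 against 75.1, 63.6 and 77.9 CPM in control, did not pass (1.28 ± 0.30, adjusted p = 0.0573). SUC3 replicate 2, the library with the most LPIN1, also had 227 CPM of CIPC and 374 CPM of FOXO1, against 96.1 and 113 CPM of CIPC and 120 and 124 CPM of FOXO1 in the other SUC3 libraries.

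**Figure D5:**
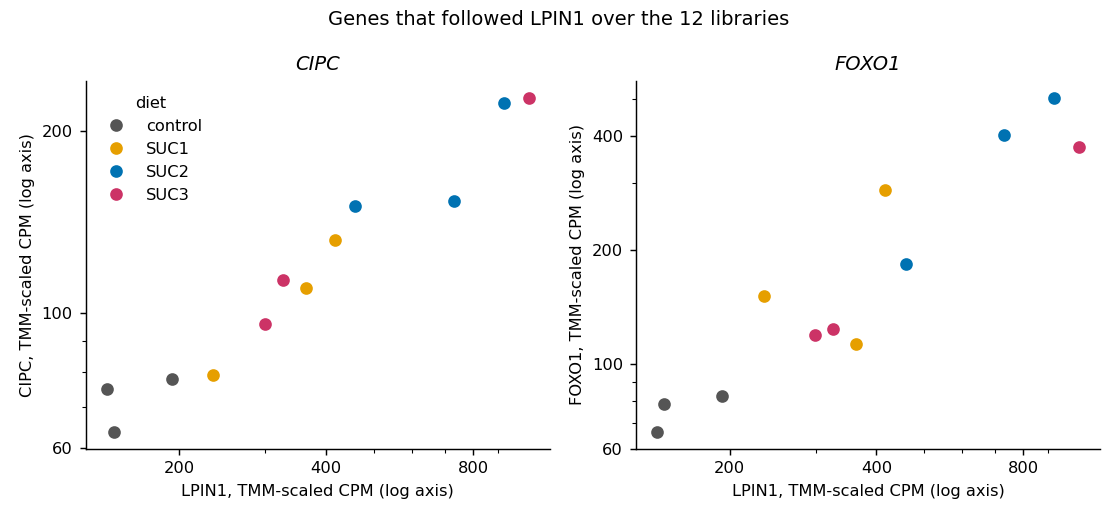
TMM-scaled CPM of CIPC and of FOXO1 against that of LPIN1 in each library, on log axes, coloured by diet. The 3 control libraries lie at the lower left, and SUC3 replicate 2 (1042 CPM of LPIN1) lies with the SUC2 libraries, apart from the other SUC3 libraries.

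Among the 10 genes, ACACA was most like LPIN1 (r = 0.76 over the 12 libraries, 0.64 after subtracting diet means). LPIN2 was less like it, with r = 0.64 that was 0.18 within diets, and LPIN3 and GPAM ran the other way, both with r = -0.51. FASN was most like CXXC1 and CEP164 (r = 0.90 each), ADCY5 (0.90), HIP1 (0.89) and CX3CL1 (0.89), none of which passed in SUC2 (adjusted p of 0.923 to 0.976). Of the 10 genes, ACACA was the most like FASN, with r = 0.67, and 0.83 after subtracting diet means. SCD, by contrast, had r = 0.23 with FASN and 0.24 with ELOVL6. All of these describe 12 libraries that also share depth and scaling.

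The other genes of the pathway were followed by list. Of 113 listed genes in 5 lists, 102 were tested, and 2 of them passed in SUC2 against control (1.96%, against 1.43% of all genes), both lower. In no other comparison did any pass. Both belong to the list of other fatty acid synthesis genes, of which 25 were tested with a median log2 fold change of -0.07 in SUC2. IDH1, the cytosolic isocitrate dehydrogenase that makes NADPH for lipid synthesis, fell to 7.84 ± 1.70 CPM in SUC2, against 25.6 ± 4.49 CPM in control (SD, n = 3 each; log2 fold change -1.70 ± 0.26, adjusted p = 0.0213). It was below control without overlap in SUC1 (14.0 ± 2.10 CPM) and SUC3 (14.0 ± 4.65 CPM) as well, where it did not pass (adjusted p = 0.401 and 0.22). TECR, the reductase that closes each elongation cycle after ELOVL enzymes, fell to 48.8 ± 4.71 CPM in SUC2, against 92.1 ± 18.3 CPM in control (log2 fold change -0.92 ± 0.18, adjusted p = 0.0332).

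In the list of other glycerolipid synthesis genes, 0 of 19 passed and 13 of the 19 had a negative value in SUC2, with a median of -0.27. Its smallest joint p belonged to LCLAT1, an acyltransferase of lysophospholipids and cardiolipin (1.42 ± 0.36 in SUC3, adjusted p = 0.165), and to CNEP1R1, the regulatory subunit of the phosphatase that acts on lipins (0.56 ± 0.21 in SUC2, adjusted p = 0.182). In the phospholipid branch 0 of 17 passed, with a median of -0.04 in SUC2, and its leading genes were SELENOI (0.52 ± 0.17 in SUC2, adjusted p = 0.122) and ETNK2 (-0.89 ± 0.44 in SUC2, adjusted p = 0.318), which act in phosphatidylethanolamine synthesis. Among 24 regulators of lipogenesis none passed, with a median of 0.08 in SUC2. The leading ones were PPARGC1B, a coactivator of SREBP and ERR factors, at 15.6 ± 5.42 CPM in SUC2 and 38.3 ± 2.19 CPM in control (-1.29 ± 0.32, adjusted p = 0.0638), and CEBPD, a transcription factor of early adipogenesis, at 166 ± 31.2 CPM in SUC2 and 56.5 ± 16.4 CPM in control (1.56 ± 0.39, adjusted p = 0.0662). Of 17 lipid droplet and lipolysis genes none passed, with a median of -0.01 in SUC2. Its leading genes were FITM1, which partitions triglyceride into droplets (-0.59 ± 0.25 in SUC2, adjusted p = 0.236), and LDAF1, which marks the sites where droplets form (-0.81 ± 0.43 in SUC1, adjusted p = 0.708).

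Adipocytes use all 10 of these enzymes, so adipocyte markers were measured beside them. Of 16 markers, 14 were in the table, 11 were tested and none passed. In SUC1, SUC2 and SUC3 10, 9 and 9 of the 11 had positive log2 fold changes, with medians of 0.80, 0.60 and 1.00. Their summed level was 442 to 472 CPM in SUC1, 311 to 566 CPM in SUC2 and 328 to 625 CPM in SUC3, against 259 to 321 CPM in control. ADIPOR2 alone gave 157 CPM of the mean control sum of 294 CPM. That gene differed little by diet, with means of 166 to 168 CPM under succinate. Only SUC2 replicate 2, with a sum of 311 CPM, fell within the control range. It had the least ADIPOR2 of the 12 libraries, 101 CPM, while control replicate 1, which set the control maximum, had 156 CPM. In SUC2 FABP4, the adipocyte fatty acid binding protein, was at 31.5 ± 7.25 CPM, against 5.45 ± 2.89 CPM in control (2.54 ± 0.61, adjusted p = 0.0573), and PLIN1, which coats the adipocyte lipid droplet, was at 4.19 ± 2.03 CPM, against 2.98 ± 0.37 CPM in control. AQP7 and THRSP had lower means in SUC2, at 10.2 ± 7.20 and 1.35 ± 0.78 CPM, against 17.4 ± 9.45 and 3.13 ± 3.10 CPM in control. LPL gave 147 CPM of the mean SUC2 sum of 454 CPM, against 55.9 CPM in control. SUC3 replicate 2, the library with the most LPIN1, had the highest adipocyte sum, 625 CPM. Control replicate 3, the library with the most SCD, had the lowest, 259 CPM. That low sum rests on ADIPOR2, which had 156, 191 and 124 CPM in control replicates 1, 2 and 3. Among the control libraries, control replicate 3 had the most ADIPOQ (43.8 CPM) and the least FABP4 (2.98 CPM). The part of adipocyte content in the levels of the 10 genes was not tested.

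Other cell types were measured in the same way, and none of their markers passed in any diet. Fibroblast and matrix markers summed to 957 to 1992 CPM in SUC1, 1045 to 1207 CPM in SUC2 and 1146 to 1571 CPM in SUC3, against 505 to 889 CPM in control, with 10 of 10 positive in each diet. Immune markers summed to 57.1 to 86.7 CPM in SUC1, 87.7 to 106 CPM in SUC2 and 42.9 to 64.5 CPM in SUC3, against 41.8 to 70.7 CPM in control, with 10, 11 and 3 of 11 positive. Endothelial markers summed to 395 to 575 CPM in SUC1, 338 to 695 CPM in SUC2 and 461 to 886 CPM in SUC3, against 352 to 416 CPM in control, with 6, 9 and 10 of 10 positive. Of the 15 muscle markers, 7, 3 and 5 were positive in SUC1, SUC2 and SUC3, with medians of -0.0075, -0.21 and -0.08. Erythroid markers stayed at or under 8.42 CPM and liver markers at or under 40.1 CPM in every library. Of the 7 erythroid markers listed only 5 were in the table and 1 was tested, so their sum may miss blood RNA. No marker of these types that was in the table was at 0 in all 12 libraries. Their part in the results was not tested.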

How the data were processed

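The deposited table held, per gene and library, whole-number read counts, which the authors had not normalised, FPKM computed by the authors, and a gene length (another quantity, in bases, deposited with them). FPKM recomputed from counts, lengths and totals differed by at most 3.6e-14 (relative). The submitters' processing notes name only the mouse builds GRCm38 and mm10, although the table's genes and chromosome identifiers are those of sheep; which genome the reads were aligned to was not settled here. Aligner, counting program, strand setting and sheep build: not given in the sources used here. Coordinates are those of the table. Chromosome numbers were taken by GeneID from the ARS-UI_Ramb_v3.0 gene table (20874 of 21257 matched). In it 1 of the 10 genes, LPIN1, had identical start and end. All others except DGAT2 had the same start or the same end. None of the 66 pairs of libraries held identical counts, and each pair differed beyond sampling noise (chi-square per degree of freedom of at least 32.1); 0 columns of values were left unused.

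Counts were fitted with edgeR 4.0.16 in R 4.3.3 (filterByExpr, TMM, factors 0.857 to 1.10, quasi-likelihood, all 12 libraries, diet as only factor, 8 residual degrees of freedom; the slope separately), two-sided, with Benjamini-Hochberg adjustment over 13319 genes called under 0.05. Every adjusted p comes from edgeR except where DESeq2 1.42.0 is named. An SE is the size of a log2 fold change divided by the root of its F. CPM are means ± SD over 3 libraries; a floor of 3 counts is 0.157 to 0.207 CPM and covers counting error only. The fit was tested on simulated counts. Ratio tests used scipy 1.17.1.

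The genes, the lists and the tests were chosen with earlier results of these data known. The rule named all 10 genes, up to 4 passing genes per list or else up to 2 by smallest joint p, and for LPIN1 and FASN the 5 genes with the highest r (log2 CPM, prior count 2). Only sums and counts are given for the marker lists other than the adipocyte one. The labels do not say if replicate numbers pair libraries. In deviations from the diet means, same-numbered libraries had r of -0.172 to 0.169 (median 0.024). Differently numbered libraries had r of -0.235 to 0.210 (median -0.016). With 3 libraries per diet these values cannot settle pairing, and the main fit used no block. Promoter and protein sequences were not analysed here. Alternatives were other scalings, DESeq2, other filters, a replicate block, only the diets compared and leaving out each library.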

Additional observations from a re-analysis of the deposited data

How the results depend on the processing

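LPIN1 in SUC2 against control kept its direction under all 19 alternatives, with log2 fold changes of 1.89 to 2.37, and stayed under an adjusted p of 0.05 in 13 of them. The 6 that ended the call each left out 1 library and are given above; the cause was not tested. With a replicate block its log2 fold change was 2.16 (adjusted p = 0.0478). Numbers of the 10 genes called were 0 to 1 in SUC2 and in the joint test when single libraries were left out, where the joint test called LPIN1 without SUC3 replicate 2 (adjusted p = 0.0276). DESeq2 called 2 of the 10 in SUC3, LPIN1 and LPIN2, and 1 in the joint test, LPIN1 (adjusted p = 5.9e-04).

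Numbers of all genes called moved as follows; the causes were not tested. By DESeq2 they were 70 in SUC1, 841 in SUC2, 241 in SUC3, 42 in SUC2 against SUC1, 65 in SUC3 against SUC1, 239 in SUC3 against SUC2, 798 in the joint test and 124 for the slope. The replicate block used numbers that are not known to pair libraries. With it the numbers of genes called were 122 in SUC2, 0 in SUC3, 1 in SUC2 against SUC1, 1 in SUC3 against SUC2 and 0 for the slope. In 5 of the 12 libraries the best correlation of deviations was with a library of the same number. Without TMM they were 2 in SUC3, 1 in SUC2 against SUC1, 30 in the joint test and 4 for the slope, and the median over all genes was 0.13 in SUC2 against SUC1 and 0.10 in SUC3 against SUC1. Without the filter on low counts they were 3 in SUC3, 1 in SUC2 against SUC1, 6 in SUC3 against SUC2 and 105 in the joint test. With a mean of at least 5 CPM they were 4 in SUC3 and 2 for the slope, and with only the diets compared 8 in SUC1 and 5 in SUC3 against SUC2. Leaving out single libraries gave 0 to 7 in SUC1, 0 to 332 in SUC2, 0 to 11 in SUC3, 0 to 1 in SUC2 against SUC1, 0 to 2 in SUC3 against SUC1, 1 to 66 in SUC3 against SUC2, 0 to 85 in the joint test and 0 to 12 for the slope.

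Several estimates that never passed changed sign. Leaving out single libraries, the log2 fold change against control in SUC1 was -0.20 to 0.10 for GPAM, -0.16 to 0.13 for DGAT1, -0.997 to 0.76 for DGAT2, -0.44 to 1.29 for SCD and -0.12 to 0.22 for ELOVL6. In SUC2 it was -0.34 to 0.51 for FASN and -1.41 to 0.31 for SCD. In SUC3 it was -0.033 to 0.29 for LPIN3, -0.22 to 0.36 for GPAM, -0.23 to 0.092 for DGAT1, -0.096 to 1.19 for DGAT2 and -1.30 to 0.44 for SCD. SUC2 against SUC1 gave -0.18 to 0.35 for LPIN2, -0.22 to 0.082 for LPIN3, -0.58 to 0.17 for FASN and -0.013 to 0.38 for ACACA. SUC3 against SUC1 gave -0.12 to 1.02 for LPIN1, -0.15 to 0.43 for GPAM, -0.19 to 0.043 for DGAT1, -0.40 to 1.79 for DGAT2, -0.076 to 0.38 for FASN and -0.27 to 0.12 for ACACA. SUC3 against SUC2 gave -0.0059 to 0.57 for GPAM, -0.049 to 0.20 for DGAT1, -1.03 to 0.25 for DGAT2, -0.0072 to 0.74 for FASN and -0.11 to 0.33 for SCD. The slope was -0.014 to 0.13 for LPIN3, -0.12 to 0.16 for GPAM and -0.12 to 0.018 for DGAT1. Without TMM, SUC2 against SUC1 was 0.0077 for LPIN3 and 0.035 for FASN, and SUC3 against SUC1 was 0.072 for DGAT1 and 0.035 for ACACA. SCD in SUC1 was 0.18 with the block. Counts were lowest for DGAT2 (5 to 69 per library) and ELOVL6 (24 to 69), and the part of depth in their errors was not tested. The planned look at protein and promoter sequences was not run.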

Other observations

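The deposited FPKM also allow the 10 genes to be set beside their paralogs per length; these paralogs, and ELOVL5 below, were chosen after their values had been seen. ACACB, the mitochondrial acetyl-CoA carboxylase whose malonyl-CoA restrains fatty acid oxidation, had a median of 24.8 FPKM over the 12 libraries, while ACACA had 0.989 FPKM. In CPM, ACACB was at 379 ± 110 in SUC2, against 207 ± 80.0 in control (SD, n = 3 each). The log2 fold change was 0.88 ± 0.33 (adjusted p = 0.182), with no overlap, in a comparison where 11.5% of all genes lay above without overlap. GPAT4, the glycerol-3-phosphate acyltransferase of the endoplasmic reticulum, had a median of 15.3 FPKM and GPAT3 one of 8.49 FPKM, while GPAM had 1.59 FPKM. SCD had 5.31 FPKM and SCD5 0.598 FPKM. The ranges of ACACB (10.1 to 51.1 FPKM) and ACACA (0.547 to 1.59 FPKM) did not overlap, nor did those of GPAT4 (11.3 to 20.3 FPKM) and GPAM (1.16 to 2.71 FPKM). These levels are descriptions, and differences in gene length and mappability were not tested.

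ELOVL5, which elongates polyunsaturated fatty acids, was at 10.1 ± 0.91 CPM in SUC2 and 10.6 ± 1.18 CPM in SUC1, against 5.06 ± 1.41 CPM in control (SD, n = 3 each). Both succinate diets lay above control without overlap, as 11.5% of all genes did in SUC2 and 7.4% in SUC1. Neither passed by edgeR, with 0.99 ± 0.24 in SUC2 (adjusted p = 0.0573) and 1.07 ± 0.24 in SUC1 (adjusted p = 0.288). ELOVL6 had values of the opposite sign in SUC2 (-0.53 ± 0.31). SREBF1, which encodes a main transcription factor of lipogenic genes, was at 29.0 ± 10.9 CPM in SUC2, against 35.0 ± 27.5 CPM in control (-0.27 ± 0.53, adjusted p = 0.840).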
